A study of Mus musculus with 58 samples.

Results

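Striatal lysate RNA was compared between 16p11.2 del/+ males, which carry 1 deleted and 1 intact copy of the mouse interval matching human 16p11.2, and wt males with 2 intact copies. The members are the 7 RNA libraries of this line that the labels place with the ribosome footprint experiment, 3 of del/+ and 4 of wt animals, of 58 samples in the series. The labels give strain B6129S, male sex and striatum for all 7 and no age, and the RNA was taken from the lysate that also gave the ribosome footprints. The deletion is carried in the germline and is therefore in every cell type of the tissue. The animals are called wt 1 to 4 and del/+ 1 to 3, in the order of their label numbers, and each library is 1 animal. The same contrast in 8 male and 8 female striatum RNA-seq libraries of this line (4 per genotype and sex, other animals) and in the 7 footprint libraries of the same males is set beside it. In 1 alternative fit, lysate libraries of males of a second line enter as well, 3 of hemi-deletion and 3 of wt animals. The paper describes that hemi-deletion as mutations in Taok2, Sez6l2 and Mvp, which are all genes of the interval.

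The striatum is the input nucleus of the basal ganglia and consists mainly of inhibitory spiny projection neurons, which fall into a direct pathway that expresses the dopamine receptor Drd1 and an indirect pathway that expresses Drd2. Human 16p11.2 deletion is a recurrent copy number variant associated with autism, developmental delay and other neurodevelopmental disorders. Its mouse counterpart on chromosome 7 holds genes of many functions, among them the kinases Mapk3 (ERK1) and Taok2, the synaptic genes Prrt2 and Doc2a, and the transcription factor Maz. With 1 copy lost and no compensation, transcript levels of such genes would be halved, a log2 fold change of -1, so the comparison asks how close each gene came to this value and which genes elsewhere moved with it.

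The 7 libraries held between 15102576 and 17995977 counts over 18411 genes, with 15303804 to 16628976 in the del/+ animals. No pair of libraries agreed within counting noise (chi-square per degree of freedom of at least 8.14 over 21 pairs). The 12 mitochondrially encoded genes took 35.8% to 44.4% of the counts in wt and 39.1% to 45.7% in del/+ libraries. Markers of spiny projection neurons were present, with Drd1 at 125 ± 12.8 CPM (counts scaled to a common library size of 1e6) in wt and 133 ± 15.7 CPM in del/+ males and Drd2 at 99.7 ± 20.9 and 98.8 ± 3.64 CPM (SD, n = 4 and 3). Over the 500 most variable genes, libraries of different genotype were about as far apart as libraries of the same genotype, with median distances of 1.39 and 1.35 on the log2 scale. The 7 lysate and the 8 male striatum libraries all carried counts of Y-linked genes. So did the striatum library labelled del/+ female 1, at 3898 counts against 0 in the other female libraries, and female values are given with and without it. CPM are scaled by TMM normalization within each comparison and give the level of 1 gene across libraries, not of 1 gene against another.

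The genes of the deleted interval were about halved in the lysate of del/+ males, and 16 of the 20 genes called in the whole transcriptome lay there. Of 14330 genes that passed the filter on low counts, edgeR's quasi-likelihood test called 20 (Benjamini-Hochberg adjusted p under 0.05), which is 0.14% of the genes tested. Of these, 18 were lower and 2 higher in del/+ males, and 641 genes (4.47%) had an unadjusted p under 0.05. The interval, taken on GRCm38 from Slx1b to Septin1 (chromosome 7, 126688927 to 127232985), held 32 genes of the table, of which 27 passed the filter. All 27 had a log2 fold change below 0, 24 had an unadjusted p under 0.05, and 16 were called lower, against 0.126% called lower over all genes tested. In 23 of the 27, all 3 del/+ animals lay below all 4 wt animals, which held for 2.63% of all genes tested. The median log2 fold change was -1.09 over the 27 genes, with a range from -1.46 to -0.19, and 0.0018 over all genes tested. Without del/+ 2 the number of calls dropped to 11, of which 10 were in the interval, and without del/+ 3 to 13, of which 12 were. In bulk tissue, fewer cells of a type and less RNA per cell cannot be told apart.

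Summed over the 27 genes, the interval stood at 1013, 953, 936 and 974 CPM in wt 1 to 4 and at 507, 440 and 440 CPM in del/+ 1 to 3. The groups lay far from each other, and the del/+ mean was 47.7% of the wt mean. The 2-sided exact permutation test gave p = 0.0571, the smallest value that 3 against 4 animals allow, so this test cannot reach 0.05 here for any gene. Within single del/+ animals, the median of the 16 called genes was 52.7%, 45.9% and 45.3% of the wt mean, and no called gene in a del/+ animal exceeded 61.6% of it. These genes were called from the same libraries, which favours low shares. Among the uncalled tested genes, a del/+ animal lay above the wt mean only in Gdpd3 and Septin1. The plot of CPM by gene shows which genes separate the groups.

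**Figure D1:**
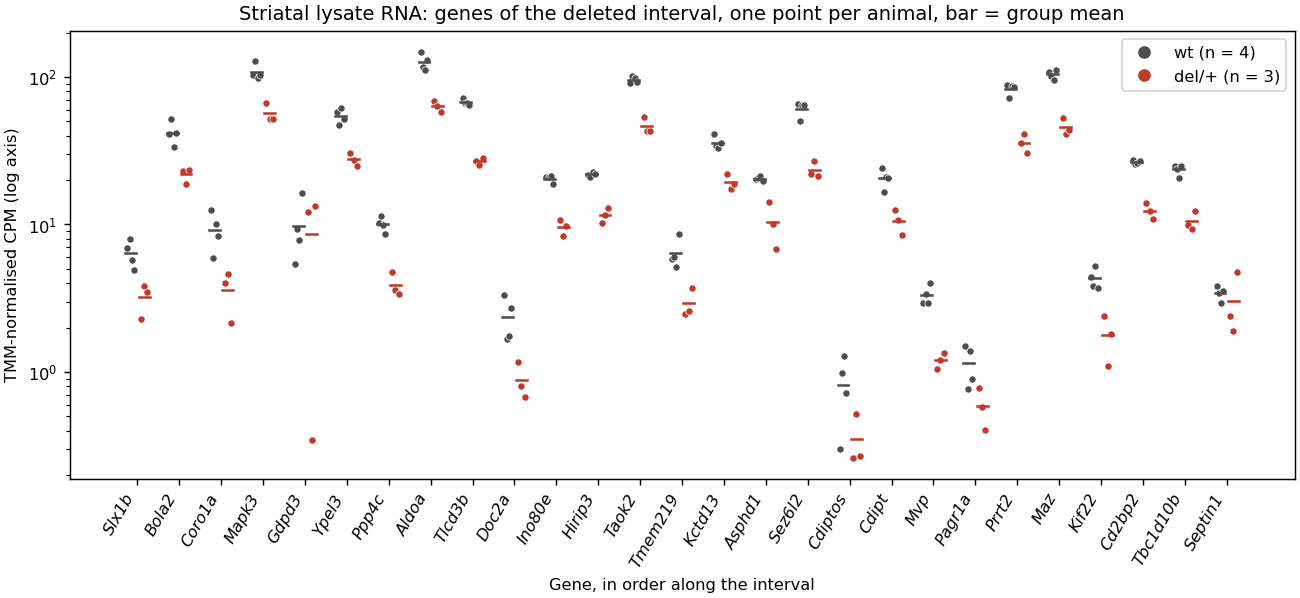
TMM-normalised CPM on a log axis for the 27 tested genes of the interval, in their order along the chromosome, with 1 point per animal (4 wt, 3 del/+) and a bar at each group mean. The groups do not overlap in 23 genes and overlap in Gdpd3, Cdiptos, Pagr1a and Septin1.

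Among the signalling genes, Taok2 (ENSMUSG00000059981), a kinase that activates p38 and JNK pathways, was at 90.8, 102, 97.8 and 91.9 CPM in wt 1 to 4 and at 53.7, 43.0 and 43.1 CPM in del/+ 1 to 3. The lowest wt animal was far above the highest del/+ animal, and the log2 fold change was -1.04 (SE 0.108, adjusted p = 0.0014 in edgeR, the tool behind all adjusted p-values below). Mapk3 (ENSMUSG00000063065), the kinase ERK1, was at 103, 129, 98.2 and 103 CPM in wt and at 66.7, 51.8 and 51.5 CPM in del/+ animals. Its log2 fold change was -0.93 (SE 0.129, adjusted p = 0.00879), with wt 2 standing above the other wt animals. Ppp4c (ENSMUSG00000030697), the catalytic subunit of protein phosphatase 4, fell from 10.1 ± 1.10 CPM in wt to 3.90 ± 0.752 CPM in del/+ males (SD, n = 4 and 3), a log2 fold change of -1.37 (adjusted p = 0.00513). Kctd13 (ENSMUSG00000030685), the adaptor that brings RhoA to a Cul3 ubiquitin ligase, was at 41.3, 33.9, 32.95 and 35.5 CPM in wt and at 21.8, 17.4 and 18.8 CPM in del/+ animals. Its log2 fold change of -0.89 (SE 0.122, adjusted p = 0.00878) was the smallest decrease among the called genes of the interval, and its 95% interval of -1.16 to -0.63 still held -1. Without del/+ 2, none of Mapk3, Ppp4c and Kctd13 was called (adjusted p = 0.0969, 0.0612 and 0.0936), and without del/+ 3, Mapk3 and Kctd13 were not (0.0698 and 0.0603).

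The neuronal and synaptic genes included Sez6l2, the strongest decrease among the called genes. Sez6l2 (ENSMUSG00000030683), a transmembrane protein of neurons, was at 65.2, 49.9, 64.5 and 64.1 CPM in wt and at 21.9, 27.0 and 21.3 CPM in del/+ animals. This was 38.4% of the wt mean, with wt 2 the lowest wt animal by a wide gap, and the log2 fold change was -1.38 (SE 0.131, 95% interval -1.66 to -1.10, adjusted p = 0.000781). Prrt2 (ENSMUSG00000045114), a presynaptic protein that regulates transmitter release, was at 88.7, 71.6, 86.5 and 84.9 CPM in wt and at 35.5, 41.2 and 30.7 CPM in del/+ animals, a log2 fold change of -1.21 (SE 0.123, adjusted p = 0.00123). Doc2a, a calcium sensor of spontaneous release, was rare. It was at 3.31, 1.68, 1.76 and 2.71 CPM in wt and at 1.17, 0.806 and 0.673 CPM in del/+ animals. The groups did not overlap, but the log2 fold change of -1.44 (SE 0.352) had an adjusted p of 0.564. Coro1a, an actin-binding protein of leukocytes and neurons, likewise separated the groups at 9.21 ± 2.77 and 3.60 ± 1.28 CPM without passing the test (log2 fold change -1.35, adjusted p = 0.243). Asphd1 was at 19.8 to 21.2 CPM in wt and at 14.2, 10.02 and 6.86 CPM in del/+ animals, so the del/+ animals spread much more widely than the wt animals (log2 fold change -0.98, adjusted p = 0.164).

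The called metabolic genes lay close to a halving, except for the lipid gene Tlcd3b. Aldoa (ENSMUSG00000030695), the glycolytic enzyme aldolase A, was at 148, 116, 112 and 130 CPM in wt and at 68.9, 63.4 and 57.9 CPM in del/+ animals, 50.0% of the wt mean (log2 fold change -0.999, SE 0.118, adjusted p = 0.0029). Its retrocopy Aldoart1, outside the interval, stood at a log2 fold change of -0.88 (adjusted p = 0.55), and since the sequences are near-identical, reads of that pair may have been shared between them. Tlcd3b (ENSMUSG00000058966), a membrane protein of the ceramide synthase family, was at 72.4, 66.4, 67.1 and 64.2 CPM in wt and at 26.8, 25.5 and 28.1 CPM in del/+ animals. It had the lowest adjusted p of all genes tested (0.000117), and its log2 fold change was -1.33 (SE 0.0969, 95% interval -1.54 to -1.12). Cdipt, which makes phosphatidylinositol, was at 20.7 ± 3.13 CPM in wt and 10.6 ± 1.96 CPM in del/+ males (log2 fold change -0.97, adjusted p = 0.0424). Cdiptos, the opposite-strand transcript of that gene, was at a log2 fold change of -1.14 (adjusted p = 0.989), and the annotated bodies of the pair do not overlap. Bola2, an iron-sulfur cluster partner, was at 42.0 ± 7.50 and 21.8 ± 2.56 CPM (log2 fold change -0.94, adjusted p = 0.0276). These calls were the least stable of the interval: Cdipt was called only when wt 2 was left out and Bola2 only when wt 2 or wt 3 was, with adjusted p-values of up to 0.219 and 0.191 without another library. Gdpd3, a lysophospholipase D, did not separate the groups. It was at 5.41, 9.25, 7.84 and 16.5 CPM in wt and at 12.1, 0.346 and 13.4 CPM in del/+ animals, and its log2 fold change of -0.19 had a 95% interval from -1.58 to 1.20 that held both 0 and -1. In limma-voom the value was -1.31 (adjusted p = 0.983), and without del/+ 2 it was 0.39.

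Of the genes with nuclear roles, Maz (ENSMUSG00000030678), a zinc finger transcription factor of G-rich promoters, was at 108, 102, 95.2 and 111 CPM in wt and at 52.7, 40.8 and 43.7 CPM in del/+ animals, a log2 fold change of -1.18 (SE 0.112, adjusted p = 0.000781). Ino80e, a subunit of the INO80 chromatin remodeller, fell from 20.5 ± 1.09 to 9.62 ± 1.24 CPM (log2 fold change -1.09, adjusted p = 0.0029). Hirip3, a histone chaperone, fell from 21.9 ± 0.727 to 11.5 ± 1.31 CPM (log2 fold change -0.92, adjusted p = 0.00513, and 0.0543 without del/+ 2). Ypel3, a regulator of cell growth, fell from 54.5 ± 6.28 to 27.6 ± 2.97 CPM (log2 fold change -0.98, adjusted p = 0.00388). These values put the called nuclear genes between 44.1% and 52.7% of the wt mean. Pagr1a, a subunit of histone methyltransferase complexes, was at 1.14 ± 0.361 and 0.587 ± 0.189 CPM with overlapping groups (log2 fold change -0.98, adjusted p = 0.989). Tbx6, a transcription factor of the embryonic mesoderm, had 2 to 15 reads per wt and 1 or 2 per del/+ library and did not pass the filter. Slx1b, a subunit of a DNA endonuclease, was at 6.39 ± 1.30 and 3.21 ± 0.827 CPM (log2 fold change -0.98, adjusted p = 0.445).

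Among genes of RNA, membrane traffic and cell structure, Cd2bp2 and Tbc1d10b were called although neither was on the list of deleted genes used here, which was drawn up by name. They lie inside the interval by position, between Spn and Septin1. Cd2bp2 (ENSMUSG00000042502), a splicing factor of the U5 particle, was at 27.5, 25.5, 25.96 and 26.8 CPM in wt and at 14.0, 12.4 and 10.8 CPM in del/+ animals (log2 fold change -1.09, SE 0.119, adjusted p = 0.00188). Tbc1d10b (ENSMUSG00000042492), an activator of Rab GTPases' hydrolysis, was at 24.9, 23.9, 20.8 and 25.02 CPM in wt and at 9.91, 9.39 and 12.3 CPM in del/+ animals (log2 fold change -1.17, SE 0.134, adjusted p = 0.00272). Both genes fell to a share of wt (46.9% and 44.6%) within the range of the called listed genes. Mvp, the main protein of vault particles, was at 2.96, 3.36, 2.92 and 4.04 CPM in wt and at 1.04, 1.21 and 1.35 CPM in del/+ animals. It had the lowest log2 fold change of the interval (-1.46, SE 0.251) and missed the threshold with an adjusted p of 0.0512. Kif22, a mitotic kinesin, and Tmem219, a receptor of an insulin-like growth factor binding protein, had log2 fold changes of -1.29 (adjusted p = 0.237) and -1.14 (adjusted p = 0.223). In each of these 3 genes no del/+ animal reached a wt animal.

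Calls were most frequent among the more highly expressed interval genes. All 11 interval genes with a mean above 20 CPM over the 7 libraries were called, as were 5 of 9 between 5 and 20 CPM and 0 of 7 at 5 CPM or less. The median log2 fold change was -1.04, -0.98 and -1.14 in these groups. The median standard error was 0.121 in the highest and 0.289 in the lowest group, and single values of the lowest group ran from -1.46 in Mvp to -0.20 in Septin1. The genes that did not pass the filter were Tbx6, AI467606, Qprt, Spn and Mylpf, each with at most 15 reads in any library. The 95% interval of the log2 fold change held -1 in 24 of the 27 genes. It lay below -1 in Tlcd3b and Sez6l2 and above -1 in Septin1, and these intervals are not adjusted for the number of genes.

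The promoters shown are those of called interval genes whose window of 250 bases before the RefSeq start (GRCm38.p6) overlaps no annotated gene, and, for contrast, that of Tyr, a called gene outside the interval. They are Ypel3 at chr7:126776713-126776962 on the plus strand, Cd2bp2 at chr7:127196078-127196327, Tbc1d10b at chr7:127208469-127208718 and Tyr at chr7:87493513-87493762, the last 3 on the minus strand. Capitals mark matches to GGGAGGG on either strand (CCCTCCC on the other), a sequence of the kind bound by Maz, itself an interval gene at 44.1% of its wt level. A capital run longer than 7 bases holds more than 1 match.
Ypel3: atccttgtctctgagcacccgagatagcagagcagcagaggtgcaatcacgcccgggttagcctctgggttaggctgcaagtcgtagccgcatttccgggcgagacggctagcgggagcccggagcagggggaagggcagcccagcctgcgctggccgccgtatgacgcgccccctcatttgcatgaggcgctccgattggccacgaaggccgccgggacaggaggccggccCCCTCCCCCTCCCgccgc
Cd2bp2: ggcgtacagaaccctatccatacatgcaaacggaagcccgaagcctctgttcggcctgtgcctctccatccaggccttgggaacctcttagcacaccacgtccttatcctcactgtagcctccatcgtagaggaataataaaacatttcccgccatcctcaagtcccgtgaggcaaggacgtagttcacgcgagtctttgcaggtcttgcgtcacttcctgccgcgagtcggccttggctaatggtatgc
Tbc1d10b: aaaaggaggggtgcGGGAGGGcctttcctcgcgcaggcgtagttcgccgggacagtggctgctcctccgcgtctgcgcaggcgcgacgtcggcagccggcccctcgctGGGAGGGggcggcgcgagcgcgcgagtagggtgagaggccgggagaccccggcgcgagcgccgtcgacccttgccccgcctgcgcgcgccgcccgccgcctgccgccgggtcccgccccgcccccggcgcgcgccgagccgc
Tyr: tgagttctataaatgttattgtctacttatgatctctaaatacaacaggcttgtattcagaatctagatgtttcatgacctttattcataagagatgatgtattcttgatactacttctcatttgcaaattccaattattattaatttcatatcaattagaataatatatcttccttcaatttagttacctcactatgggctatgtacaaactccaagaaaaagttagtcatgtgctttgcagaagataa

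Ypel3 and Tbc1d10b held 2 matches each, and Cd2bp2 and Tyr none, while all 3 interval genes fell to a similar share of wt (50.7%, 44.6% and 46.9%). GC content was 68.8% in Ypel3, 80.4% in Tbc1d10b, 54.8% in Cd2bp2 and 28.8% in Tyr. The reference held 33 windows for 25 of the interval genes, and 13 of them (39.4%) held the motif, against 19.7% of all 32851 windows. Their median GC content was 59.6%, against 52.4% over all windows. Of the Maz windows, the upstream one held 4 matches and the other 2. Among called interval genes, matches lay in windows of Ypel3, Tlcd3b, Ino80e, Maz and Tbc1d10b, and in no other gene with a window. The other matches lay in windows of Coro1a, Tbx6, AI467606, Qprt, Spn and Mylpf. Of these genes, only Coro1a passed the filter on low counts, and it was not called. A match describes the sequence and was not tested as a binding site.

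Fold changes centred on 0 in the genes flanking the interval. At its Slx1b end, Slx1b and Bola2 were still at log2 fold changes of -0.98 and -0.94. Septin1 (ENSMUSG00000000486), a cytoskeletal GTPase and the outermost listed gene, was at 3.86, 3.43, 2.92 and 3.56 CPM in wt and at 2.41, 1.90 and 4.78 CPM in del/+ animals. Its groups overlapped, and the 95% interval of its log2 fold change (-0.20, -0.83 to 0.43) excluded -1. This value depended on del/+ 3, the only del/+ animal above the wt animals. Without del/+ 3 the log2 fold change of Septin1 was -0.68 (unadjusted p = 0.0201 and adjusted p = 0.819 in edgeR). Of 63 table genes within 1 Mb outside the interval, 54 passed the filter and none was called by edgeR, with 3 at an unadjusted p under 0.05 and none called by DESeq2. Their median log2 fold change was 0.0012, with 27 of 54 below 0. For 52 of the 54 the 95% interval excluded -1, the exceptions being Nupr1 and Ctf1. The 3 genes at an unadjusted p under 0.05 were Itgam (log2 fold change -0.54), Nupr1 (-0.59) and Sult1a1 (0.60), all with an adjusted p of 0.989. Sult1a1, whose annotated body overlaps that of Slx1b, and Nupr1 lie on the Slx1b side, and their differences had opposite signs. From counts per gene, reads in the overlap of Sult1a1 and Slx1b cannot be told apart.

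**Figure D2:**
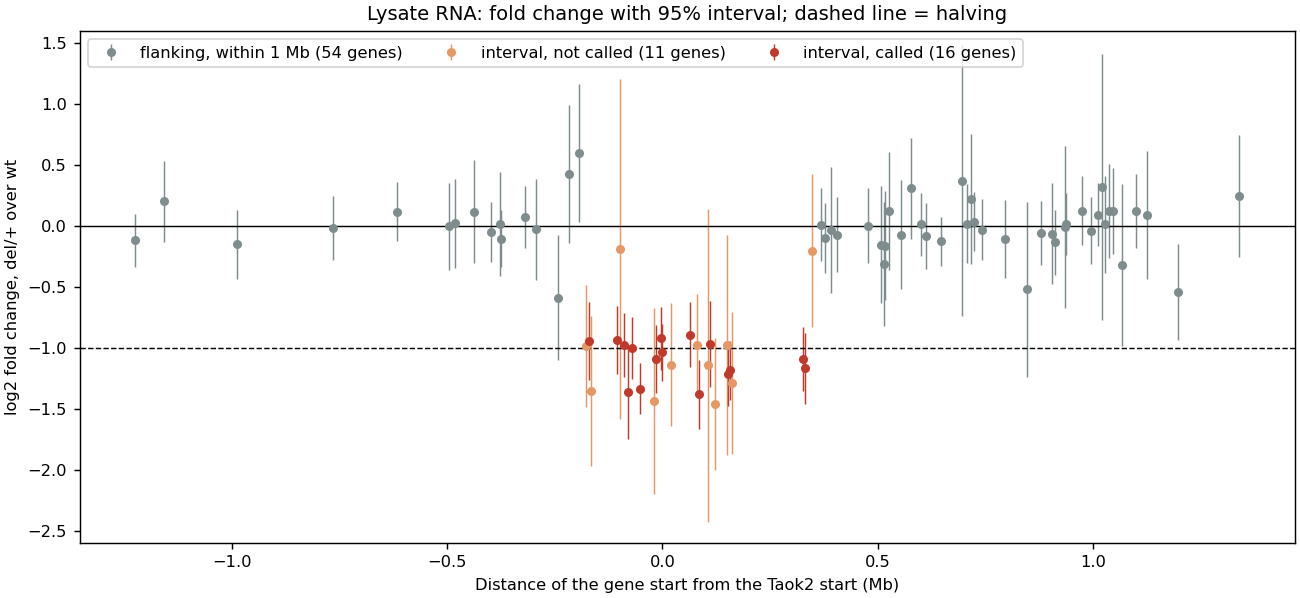
log2 fold change in lysate RNA (del/+ over wt) with its 95% interval, against the distance of each gene start from the Taok2 start in Mb, for 16 called and 11 uncalled interval genes and 54 flanking genes. The interval genes lie around the dashed line at -1 except Gdpd3 and Septin1, and the flanking genes lie around 0 on both sides.

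Outside the interval 4 genes were called, with Tyr and Gm42417 higher and Ryr1 and Gm42742 lower in del/+ males. Tyr (ENSMUSG00000004651), which encodes tyrosinase, the first enzyme of melanin synthesis, had 1, 3, 4 and 1 reads in wt 1 to 4 and 38, 32 and 22 reads in del/+ 1 to 3. This came to 0.141 ± 0.10 CPM in wt and 1.93 ± 0.504 CPM in del/+ males, with no overlap and a log2 fold change of 3.78 (SE 0.489, adjusted p = 0.00388). It lies on chromosome 7 of GRCm38 at 87424771 to 87493512, far from the interval. The other coat colour gene on the list, agouti (a), was at 0.150, 0.911, 0.182 and 0 CPM in wt and at 1.499, 1.04 and 1.41 CPM in del/+ animals. The groups did not overlap here either, but the log2 fold change of 2.17 (SE 0.639) had an adjusted p of 0.989. Agouti is a secreted signal of the skin that acts on pigment cells, and both genes were listed here with their earlier values known. Counts per gene do not show whether the reads of Tyr and a came from their own loci, and this was not tested.

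Ryr1 (ENSMUSG00000030592), the calcium release channel of the sarcoplasmic reticulum, was at 32.2, 35.4, 20.2 and 36.4 CPM in wt and at 12.9, 15.8 and 12.3 CPM in del/+ animals (log2 fold change -1.18, SE 0.190, adjusted p = 0.034). It lies on chromosome 7 of GRCm38 at 29003340 to 29125179. Ryr1 separated the groups, but it was called without 1 library only when wt 3 was the library left out, with an adjusted p of up to 0.272 in the other cases. The predicted gene Gm42742 was at 38.6, 27.1, 43.4 and 26.1 CPM in wt and at 16.9, 12.8 and 16.4 CPM in del/+ animals (log2 fold change -1.14, SE 0.187, adjusted p = 0.0399). The predicted gene Gm42417 had 8, 5, 1 and 2 reads in wt and 18, 39 and 33 reads in del/+ animals (log2 fold change 2.95, SE 0.493, adjusted p = 0.0424). Gm42742 was called without wt 2 or wt 4 and Gm42417 without del/+ 1, and neither was called without any other library, with adjusted p-values of up to 0.25 and 0.259. Tyr was called without each of the 7 libraries in turn (adjusted p of at most 0.039). Of these 4 genes, Tyr alone was called whichever library was left out.

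**Figure D3:**
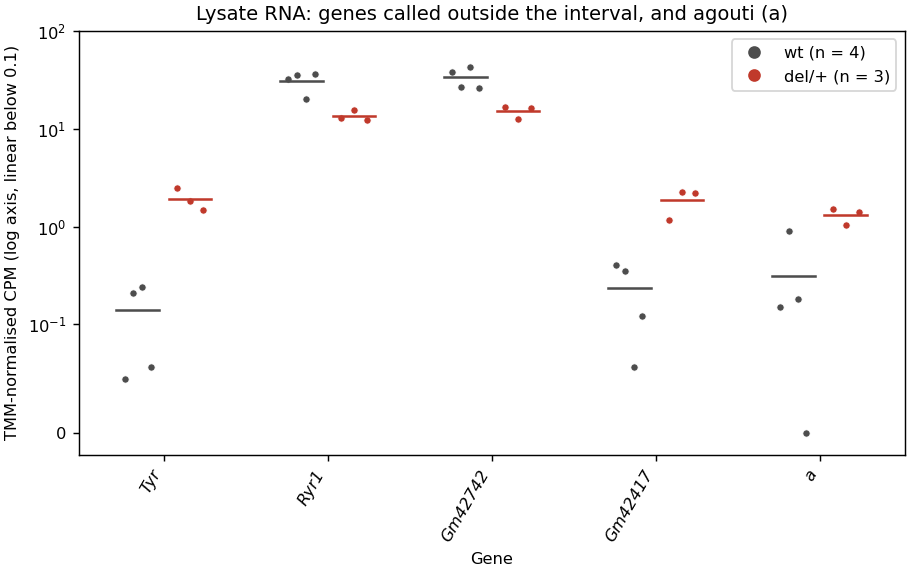
TMM-normalised CPM per animal (log axis, linear below 0.1) for the 4 genes called outside the interval and agouti (a), with a bar at each group mean (4 wt, 3 del/+). Tyr, Gm42417 and a are higher and Ryr1 and Gm42742 lower in every del/+ animal than in every wt animal.

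**Figure D4:**
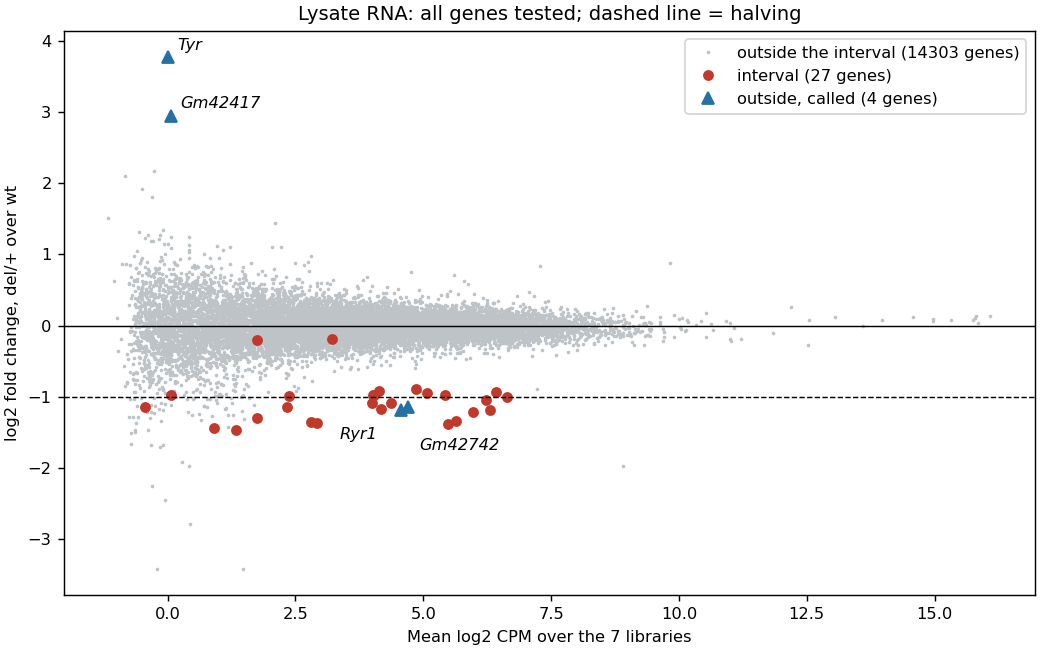
log2 fold change in lysate RNA against the mean log2 CPM over the 7 libraries for all 14330 genes tested, with the 27 interval genes and the 4 genes called outside it marked. The interval genes lie near -1 except Gdpd3 and Septin1, while the remaining genes centre on 0.

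The ERK cascade and the partners of the deleted genes did not move with them. Of 23 listed genes of the ERK cascade around Mapk3, none was called by edgeR and none had an unadjusted p under 0.05, and the median log2 fold change was 0.015. Map2k1, a kinase that activates Mapk3, was at 50.6 ± 5.30 CPM in wt and 49.3 ± 3.24 CPM in del/+ males (SD, n = 4 and 3), a log2 fold change of -0.04 with a 95% interval from -0.27 to 0.19. The 8 genes of the Kctd13 ligase and its target pathway had a median log2 fold change of 0.059, with the scaffold Cul3 at 0.03 (95% interval -0.23 to 0.30) and Rbx1 at 0.13 (-0.07 to 0.33). Of 22 tested paralogues of deleted genes, a list added after the data were seen, none was called, and the median log2 fold change was -0.00017. Ppp6c had the only unadjusted p under 0.05 among them (log2 fold change 0.29, adjusted p = 0.989). Taok1 and Sez6, the closest relatives of Taok2 and Sez6l2, had log2 fold changes of 0.0071 and -0.25, with adjusted p-values of 0.997 and 0.989.

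Genes of spiny projection neurons were level between genotypes. The 11 genes common to these neurons summed to 3104 to 4495 CPM in wt and 3165 to 4295 CPM in del/+ animals, and their median log2 fold change was -0.056. Ppp1r1b, the dopamine signalling protein DARPP-32, had one of 0.0065 (95% interval -0.28 to 0.30), and Bcl11b, a transcription factor of these neurons, one of -0.06 (-0.46 to 0.35). The direct-pathway genes had a median of 0.092 (Drd1 0.08, Tac1 0.09) and the indirect-pathway genes one of -0.012 (Drd2 -0.01, Adora2a -0.19). The 12 immediate early genes varied widely without following genotype, with a sum of 486, 423, 791 and 258 CPM in wt 1 to 4 and of 734, 712 and 218 CPM in del/+ 1 to 3. Fos and Fosb, the transcription factors at the head of that list, had log2 fold changes of -0.09 and 0.48. No gene of these lists was called.

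Markers of other cell types were as follows, with no gene called in any list. Summed markers of cortical excitatory neurons were at 672 to 1174 CPM in wt and 631 to 901 CPM in del/+ animals, and all 7 had a log2 fold change below 0 (median -0.23, Slc17a7 -0.41, Neurod6 -0.21). Ependymal markers summed to 18.3 to 73.2 CPM in wt and 60.2 to 99.5 CPM in del/+ animals, most of it Cfap54. All 4 ependymal markers tested had a log2 fold change above 0 (median 0.54, range 0.32 to 0.85). Choroid plexus markers summed to 10.7 to 24.5 and 15.3 to 20.7 CPM, with their defining gene Ttr at 4.15 and 1.92 CPM on average. Red blood cell genes summed to 271 to 404 and 258 to 298 CPM. Their part in the results above was not tested. Sums in wt and del/+ animals overlapped for astrocytes (3639 to 4398 and 3798 to 4239 CPM), oligodendrocytes (3494 to 4984 and 3831 to 4391 CPM), microglia (95.9 to 127 and 97.3 to 123 CPM), endothelial cells (52.4 to 62.0 and 46.9 to 66.2 CPM), striatal interneurons (111 to 120 and 104 to 120 CPM), thalamic neurons (33.98 to 41.95 and 32.98 to 48.25 CPM), oligodendrocyte precursors (57.9 to 66.4 and 61.6 to 69.6 CPM) and mural cells and fibroblasts (49.5 to 74.2 and 50.1 to 73.0 CPM). The 79 cytosolic ribosomal protein genes had a median log2 fold change of 0.029, the 12 mitochondrially encoded genes 0.085 and the 10 ATF4 target genes of the stress response 0.12.

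The leading markers of these cell types had wide intervals, and the first genes of each list show the size of the differences. Log2 fold changes were -0.04 and -0.19 for the interneuron peptides Sst and Npy, 0.08 and 0.44 for the thalamic Tcf7l2 and Prkcd, 0.13 and 0.21 for the astrocytic Aqp4 and Gfap, and 0.06 for the myelin gene Mbp. They were 0.13 and -0.33 for the precursor genes Pdgfra and Cspg4, -0.0039 and 0.24 for the complement genes C1qa and C1qb of microglia, -0.44 and -0.06 for the endothelial Cldn5 and Flt1, and -0.21 and 0.04 for the pericyte genes Pdgfrb and Rgs5. None of these genes had an unadjusted p under 0.05. Foxj1 and Ccdc153, genes of motile cilia, had values of 0.49 and 0.85, and Kl, of the choroid plexus, one of -0.31. Members that did reach it in these lists included the myelin gene Mag (-0.30) and the choroid plexus gene Otx2 (1.34), each with an adjusted p of 0.989. Hba-a1 and Hba-a2 (-0.12 and -0.16) share near-identical sequence, and so their reads may have been split.

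The striatum RNA-seq of other animals gave the interval genes similar decreases. In 8 male libraries edgeR called 19 of 17957 genes, with 17 interval genes lower against 0.0947% called lower over all genes, and in 8 female libraries 26 of 18067, with 19 interval genes lower against 0.111%. The median log2 fold change of the 29 interval genes tested was -1.09 in males and -1.04 in females. Without the library labelled del/+ female 1, 23 genes were called, 17 of them interval genes that were lower, and the median was -1.06, and without wt male 4, 25 genes were called in males. Of the 20 genes called in lysate RNA, 15 were also called in the males, which is 75.0% of the lysate calls and 79.0% of the male calls, and 16 in the females, 80.0% and 61.5%. Without del/+ female 1 it was 15 in the females, 75.0% and 65.2%. Tyr was called in all 3, with log2 fold changes of 6.35 in males and 4.53 in females, and a was called in both striatum sets (9.05 and 7.59). Without del/+ female 1 both were still called in females (4.42 and 7.56). Septin1 had log2 fold changes of -0.02 in the males and -0.54 in the females (-0.65 without del/+ female 1), and was called in neither.

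For some genes the values were not alike in the data sets, but the differences did not pass edgeR's test of the interaction. Ryr1, lower in the lysate, had log2 fold changes of 0.76 (adjusted p = 0.775) in the striatum males and 0.61 in the females (0.41 without del/+ female 1), and it ranged from 8.57 to 50.6 CPM among the striatum wt males alone. The interaction of Ryr1 had an adjusted p of 0.957. Gm42742 was at 1.11 ± 0.494 CPM in the striatum wt males. Its log2 fold changes in the striatum were -0.44 in males (adjusted p = 0.788) and -1.665 in females (adjusted p = 0.19, and 0.266 without del/+ female 1). Gm42417 was at 0 CPM in the striatum libraries of both sexes, so its increase in the lysate has no counterpart there. Prrt2 was nearly absent from the striatum tables, at 0.404 ± 0.224 CPM in wt and 0.404 ± 0.312 CPM in del/+ males (SD, n = 4 each), so its decrease in the lysate has no counterpart to compare there. The labels name Bowtie2 and mm39 for the lysate and HTSeq and mm10 for the striatum libraries. Levels in these tables were not put on 1 scale. A test of the genotype by data set interaction over 7 lysate and 8 male striatum libraries called 0 of 15583 genes in edgeR, with 689 at an unadjusted p under 0.05, and DESeq2 called only a. Among the interval genes the interaction was largest in relation to its error in Tlcd3b (difference in log2 fold change -0.37, unadjusted p = 0.007), which was at -1.33 in the lysate and -0.97 in the striatum males. After adjustment this difference did not pass.

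In the footprints of the same males, which share the animals with the lysate RNA, 13 interval genes passed the filter and all had a log2 fold change below 0, with a median of -1.09 and a range from -1.36 to -0.63. Maz (-1.09, adjusted p = 0.0274) and Aldoa (-1.25, adjusted p = 0.0227) were called, where 7 of 5964 genes were called and 0.0503% called lower. The footprint libraries held only 357221 to 611890 counts. Kctd13 was at -1.36 and Ypel3 at -0.68 in the footprints, beside -0.89 and -0.98 in lysate RNA, and the 95% intervals of both footprint values held -1. Ryr1 and Gm42742 were at -0.47 and -1.02 in the footprints, with adjusted p-values of 0.803 and 0.693.

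**Figure D5:**
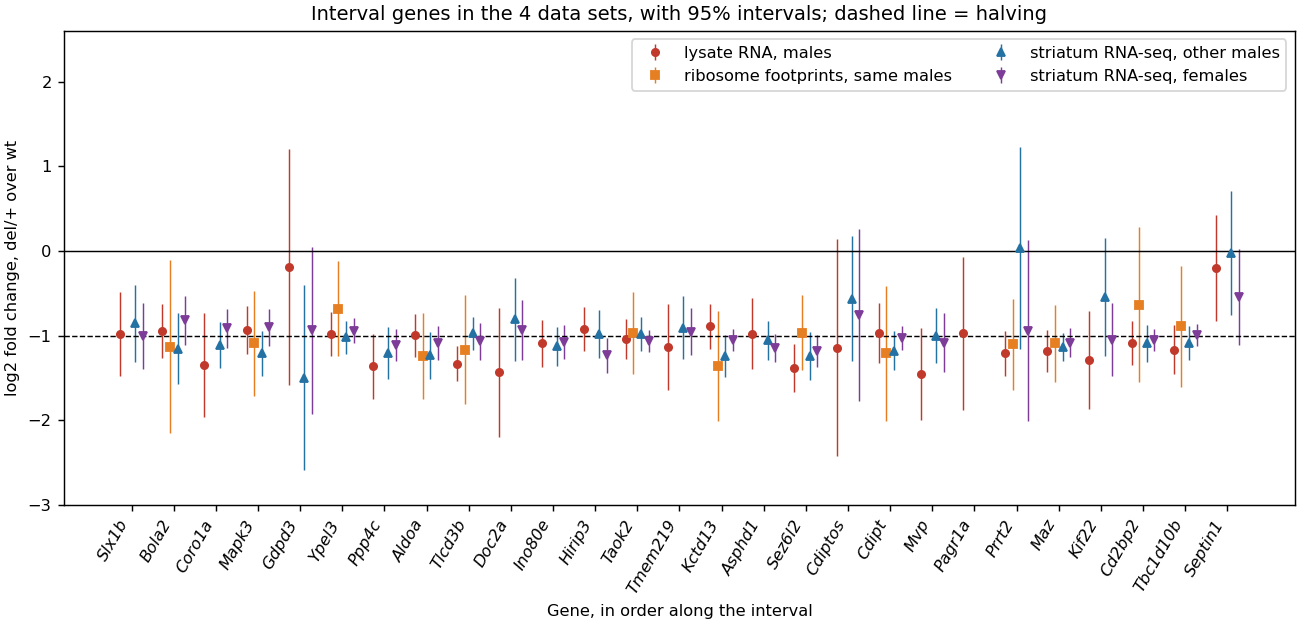
log2 fold change (del/+ over wt) with its 95% interval for the 27 tested interval genes in lysate RNA (7 males), ribosome footprints of the same males, and striatum RNA-seq of 8 other males and 8 females. Most values lie near the dashed line at -1, and the values furthest above it are those of Gdpd3 in the lysate, Prrt2 in the striatum males and Septin1 in the lysate and striatum males.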

How the data were processed

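RNA from striatal lysates of 7 16p11.2 males was sequenced with single reads. The values are whole-number counts per Ensembl gene as deposited by the authors, without normalization. The labels name Bowtie2 and mm39 for these and the footprint libraries and HTSeq and mm10 for the striatum RNA-seq. The counting method of the lysate table is not given in the sources used here, and all 14 counts of 7 or more digits end in 0, as after rounding to 6 digits. The labels' extraction text names human brains, although the organism is mouse. Symbols were found for 18377 of 18411 gene IDs. Positions come from RefSeq on GRCm38.p6, while the lysate reads were mapped to mm39, so they serve for names, order and distances only.

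Genes were filtered with filterByExpr, normalized by TMM and tested with edgeR 4.0.16 (quasi-likelihood test with legacy set to FALSE, R 4.3.3), with a Benjamini-Hochberg adjusted p under 0.05 as the call. Standard errors and 95% intervals come from the same fit. The fit was tested on simulated data with the spread estimated from these libraries. Changes were placed only in genes above 5 CPM, so changes in rarer genes such as Tyr and Gm42417 were not covered. The exact permutation test of single values, 2-sided, runs over 35 arrangements. Alternatives were DESeq2 1.42.0, limma 3.58.1 with voom, sva 3.50.0 (1 surrogate variable), RLE factors, no filter, other thresholds, the 13 lysate libraries of both lines in 1 fit, and leaving out each library. The interval genes, the lists and the comparisons were chosen with earlier results of these data known. The text names every measured gene of the deleted-region list, all genes called outside it, called flanking genes, the coat colour genes, and, of each other list, called members and the first 2 genes that passed the filter, with further genes marked or chosen for their unadjusted p after their values were seen. Some genes that this rule names are not reported here. P-values measure the spread between animals within this experiment. Intervals cover counting and animal spread together, and precision is limited by the 3 and 4 animals and, for rare genes, by depth.

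In the striatum RNA-seq the labels give both genotypes the replicate numbers 1 to 4. Same-numbered samples did not deviate together (correlations of -0.256 to 0.0709 in males and -0.0117 to 0.108 in females), so the numbers were not taken to pair them. The lysate animals carry individual numbers that no 2 animals share.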

Additional observations from a re-analysis of the deposited data

Results flagged for a closer look

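In 5 of 56 sets of 4 wt animals examined in the lysate (the interval genes, the genes of the outside group and the summed marker lists), 1 animal lay far from the other 3, by a gap of more than 0.829 of the whole range. Chance alone gives about 1 in 20 such sets. wt 2 was high for Mapk3 (129 CPM, others 98.2 to 103) and low for Sez6l2 (49.9 CPM, others 64.1 to 65.2) and for the summed astrocyte markers (3639 CPM, others 4295 to 4398). wt 4 was low for Ino80e (18.9 CPM, others 20.9 to 21.2) and high for the summed paralogues of deleted genes (1751 CPM, others 1638 to 1652). No explanation for these values was tested. Without wt 2, edgeR still called Sez6l2 (log2 fold change -1.46, adjusted p = 0.000363) and Mapk3 (-0.84, adjusted p = 0.0174), and without wt 4 it called Ino80e (-1.13, adjusted p = 0.00844).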

How the results depend on the processing

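All genes called in the lysate numbered 20 with edgeR, 32 with DESeq2, 641 at an unadjusted p under 0.05 and 11 to 19 when each library was left out in turn, with the low values of 11 and 13 without del/+ 2 and del/+ 3. The listed deleted genes called numbered 14, 19 with DESeq2, 18 in the fit of 13 lysate libraries and 17 with 1 surrogate variable. They numbered 22 at an unadjusted p under 0.05 and 8 to 14 over the left-out libraries. Coro1a and Asphd1, not called by edgeR, were called by DESeq2 (adjusted p = 0.00281 and 0.00102). Calls outside the interval numbered 4, 11 with DESeq2, 1 with limma-voom, 2 in the fit of 13 lysate libraries, 617 at an unadjusted p under 0.05 and 1 to 3 over the left-out libraries. No flanking gene was called by edgeR, DESeq2 or limma-voom, and 3 had an unadjusted p under 0.05. In every setting run, 10 of the 27 interval genes were called (Aldoa, Cd2bp2, Ino80e, Maz, Prrt2, Sez6l2, Taok2, Tbc1d10b, Tlcd3b and Ypel3). Of the interval genes at 5 CPM or less, Mvp was called in 4 settings, DESeq2 and RLE factors among them (adjusted p = 0.00618 and 0.0483). Kif22 was called in 2, DESeq2 and the 13 libraries, and Tmem219 in 1, DESeq2 (adjusted p = 0.013). At this depth, the filter left out 5 interval genes. Tyr was called in all settings but 1, with runs of consecutive animal numbers as a term, chosen after seeing the data (adjusted p = 0.0711), where 16 genes were called in all. Only Gdpd3 and Septin1 changed sign. Gdpd3 ran from -0.67 to 0.39 over the left-out libraries (0.39 without del/+ 2, 0.19 without wt 4) and was at -1.31 in limma-voom, and Septin1 from -0.68 to 0.056 (0.056 without del/+ 2). Over 35 named genes and all settings, 522 values were compared, of which 457 kept their side of the threshold, 14 passed it, 48 lost it and 3 changed sign. DESeq2 called 37 genes in striatum males, 50 in females, 21 in the footprints and 1 in the interaction, where edgeR had 689 at an unadjusted p under 0.05. With the replicate number as a block, 17 genes were called in striatum males (16 of them shared with the 19) and 24 in females (22 shared with the 26), and the number was not taken to pair the samples. The cause of these changes was not tested.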

Other observations

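Besides the 4 called genes, 11 genes outside the interval had log2 fold changes beyond 1.9 in either direction without passing the test, and the 3 described were picked for their values. Myo7a, a motor protein of sensory hair cells, was at 0.301, 6.94, 3.65 and 6.81 CPM in wt 1 to 4 and at 0.391, 0.576 and 0.202 CPM in del/+ 1 to 3 (log2 fold change -3.42, adjusted p = 0.618 from edgeR). wt 1 was thus at the level of the del/+ animals, and without it Myo7a was called. Cdr1, a brain transcript of chromosome X whose locus also gives an antisense circular RNA that this table cannot tell apart, was at 743, 759, 1208 and 112 CPM in wt and at 120, 240 and 179 CPM in del/+ animals (log2 fold change -1.98, adjusted p = 0.878). Here wt 4 was the animal at the del/+ level, and Cdr1 was called without it. Ankrd23 was lower in every del/+ animal (0.261, 0.173 and 0.404 CPM, against 1.09 to 3.77 CPM in wt, log2 fold change -2.79, adjusted p = 0.278) and was called by DESeq2, with 1 surrogate variable and with the runs of animal numbers as a term.

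Outside the interval, chromosome 7 as a whole showed 51 of 1037 genes (4.92%) at an unadjusted p under 0.05, against 4.22% of 13128 genes on other chromosomes. Beyond 85 Mb, the stretch that holds Tyr and the surroundings of the interval, it was 17 of 421 genes (4.04%). Of the 11 uncalled genes beyond 1.9, Myo7a, Trim12a and Chrdl2 lie in this stretch (log2 fold changes -3.42, -2.45 and 1.92). The others with a known position lie on chromosomes 1, 2, 3, 14, 15 and X. The called genes Tyr and Ryr1 lie on chromosome 7 as well. Whether position plays a part in these differences was not tested.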
